A study of Mus musculus with 6 samples.

Results

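Transcripts of 10 heterogeneous nuclear ribonucleoprotein (hnRNP) genes, Hnrnpa0, Hnrnpa1, Hnrnpa2b1, Hnrnpa3, Hnrnpc, Hnrnpk, Hnrnpm, Hnrnpr, Hnrnpu and Syncrip, were followed in mouse hippocampus. They were chosen by name as core hnRNP genes, and each symbol matched 1 Ensembl gene, which gave 10 of the 52550 genes in the count table. Their splicing events, found by gene symbol, numbered 48 of 40961 listed. The samples were hippocampi of male C57BL/6 J mice injected in both CA1 areas at 8 weeks of age with adeno-associated virus (AAV). By the study's methods the virus carried either control shRNA or shRNA against L-DL, the long protein isoform of the hnRNP gene Hnrnpdl, with 3 libraries in each group. H1 promoters drove the tandem L-DL shRNAs, and a CamkIIα promoter drove only the zsGreen reporter, so the shRNA was not limited to neurons by its promoter. The control virus was given at a higher titre than the L-DL virus. The labels give virus injection for all 6 samples without naming a control virus, and they call the control mice wild type and the others hnRNP DL-/- in one field and hnRNP DL KD in another. The age at which RNA was taken, and whether a library holds 1 mouse, is not given in the sources used here.

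HnRNP proteins coat nascent transcripts in the nucleus, help choose splice sites and follow many mRNAs into the cytoplasm. The A-type proteins carry RNA recognition motifs and a glycine-rich tail, hnRNP C binds runs of uridine, hnRNP K binds C-rich stretches through KH domains, and hnRNP U binds chromatin-associated RNA. Many hnRNP genes splice their own transcripts in more than one way, and in neurons hnRNP R and hnRNP Q (Syncrip) also travel with mRNAs into axons and dendrites. The comparison asks whether transcript levels or splicing of these genes differed between hippocampi given control shRNA and those given L-DL shRNA.

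The targeted gene did not separate the groups. Hnrnpdl had 176, 184 and 171 CPM (counts scaled to a TMM-adjusted library of 1000000 reads) in control replicates 1 to 3 and 217, 150 and 173 CPM in the L-DL KD replicates (log2 fold change 0.03, adjusted p = 0.898). Gene counts do not tell L-DL from other isoforms, and the second group is therefore called the L-DL KD-labelled libraries. Reads on genes numbered 16052529 to 17913064 per library. L-DL KD-labelled replicate 1 stood apart, with a Pearson r of 0.983 and 0.976 over log2 CPM to the other libraries of its group, against 0.990 to 0.992 for other pairs of a group. All 10 microglial markers were higher in the L-DL KD-labelled libraries (summed level 1352 to 1691 CPM in controls and 2840 to 3656 CPM), 8 of 10 neuronal markers were lower and 1 was higher (5090 to 5381 CPM and 3286 to 3871 CPM), and 4 of 8 astrocyte markers were lower and 1 was higher (7897 to 8042 CPM and 6143 to 7232 CPM). Among CA1 pyramidal markers 3 of 6 were lower (454 to 535 CPM and 316 to 375 CPM), and among dentate granule cell markers 3 of 6 (531 to 604 CPM and 469 to 496 CPM). Endothelial markers were higher for 2 of 6 (297 to 320 CPM and 348 to 441 CPM), oligodendrocyte markers for 2 of 8 with overlapping sums, and 0 of 5 markers of dividing cells passed the edgeR test, 3 of them with an unadjusted p under 0.05. The part of these cell types in the results on hnRNP genes was not tested, and in bulk tissue fewer cells of a type and less RNA per cell cannot be told apart.

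Transcript levels of these genes differed little between the groups. Hnrnpk and Hnrnpu were higher and Hnrnpa0 was lower in the L-DL KD-labelled libraries at an adjusted p under 0.05, and 7 genes did not pass the test. Of all 17621 genes tested, 15.6% were called higher and 15.0% lower, so that 2 and 1 of 10 is near the background. Groups that did not overlap were seen for 3 of the 10 genes, against 47.2% of all genes. The median log2 fold change was 0.04 over the 10 genes and 0.01 over all genes. Summed over the 10 genes, the level was 2537 to 2664 CPM in controls and 2577 to 2823 CPM in the L-DL KD-labelled libraries.

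**Figure D1:**
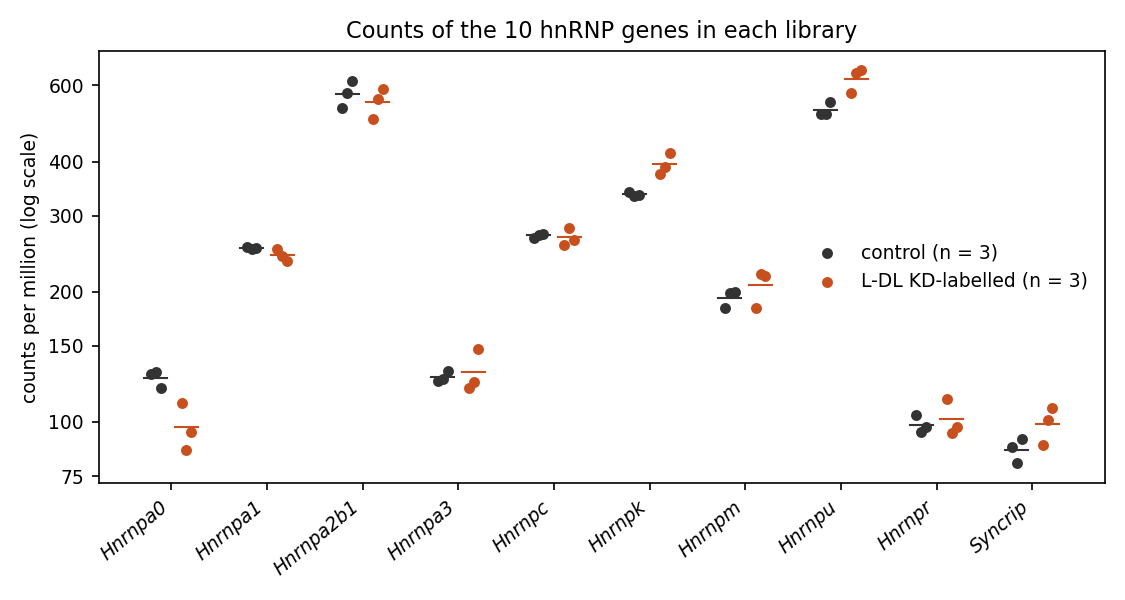
CPM of the 10 hnRNP genes (log axis) in each of 3 control libraries and 3 L-DL KD-labelled libraries. Points are libraries in replicate order and lines are group means. The groups lie apart for Hnrnpa0, Hnrnpk and Hnrnpu and overlap for the other 7 genes.

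Among the A-type genes, Hnrnpa0 (ENSMUSG00000007836, GRCm38 chr13:58125879-58128556, minus strand), whose protein binds AU-rich elements of mRNAs, was the one called. It had 129, 131 and 120 CPM in control replicates 1 to 3 and 111, 86.0 and 95.1 CPM in the L-DL KD-labelled replicates. The highest L-DL KD-labelled library, replicate 1, lay below the lowest control. The mean fell from 126 ± 5.91 to 97.3 ± 12.6 CPM (SD, n = 3), a log2 fold change of -0.38 (SE 0.0989, adjusted p = 0.0224, edgeR quasi-likelihood test with Benjamini-Hochberg adjustment over all genes). The call was lost without control replicate 1 (adjusted p = 0.0754), control replicate 2 (adjusted p = 0.0800), L-DL KD-labelled replicate 2 (adjusted p = 0.0678) or L-DL KD-labelled replicate 3 (adjusted p = 0.0608).

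Hnrnpa1 (ENSMUSG00000046434, chr15:103240432-103246692, plus strand), which encodes a widely acting splicing repressor, had 253, 252 and 253 CPM in controls and 252, 242 and 236 CPM in the L-DL KD-labelled libraries. Its groups overlapped, and the 95% interval of the log2 fold change ran from -0.19 to 0.08 (adjusted p = 0.520). Hnrnpa2b1 (ENSMUSG00000004980), which encodes the A2 and B1 proteins that sort mRNAs into dendrites, was the most abundant of the A-type genes per length. It had 533, 576 and 615 CPM in controls against 502, 559 and 588 CPM, so that both groups spanned much the same range (log2 fold change -0.06, 95% interval -0.26 to 0.13, adjusted p = 0.614). Hnrnpa3 (ENSMUSG00000059005), a close relative of Hnrnpa2b1, had 124, 126 and 131 CPM in controls against 120, 123 and 148 CPM. L-DL KD-labelled replicate 3 was the highest of the 6 libraries, and the log2 fold change of 0.04 (adjusted p = 0.783) became -0.0578 without it.

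Hnrnpc (ENSMUSG00000060373, chr14:52073377-52104028, minus strand), which encodes the uridine-binding core protein of nuclear hnRNP particles, had nearly equal levels in both groups. It had 266, 271 and 272 CPM in controls and 257, 281 and 264 CPM in the L-DL KD-labelled libraries. The 95% interval of its log2 fold change ran from -0.16 to 0.13 (adjusted p = 0.887), and the estimate of -0.01 became 0.0171 with scaling by library size.

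Hnrnpk (ENSMUSG00000021546, chr13:58391142-58403343, minus strand), which encodes a poly(C)-binding protein of transcription and splicing, was higher in the L-DL KD-labelled libraries. It had 341, 332 and 335 CPM in control replicates 1 to 3 and 375, 389 and 419 CPM in the L-DL KD-labelled replicates. All 3 L-DL KD-labelled libraries lay above all controls. The mean rose from 336 ± 4.20 to 394 ± 22.6 CPM (SD, n = 3), a log2 fold change of 0.23 (SE 0.0666, adjusted p = 0.0321). It overlaps Rmi1 on the opposite strand, which had at most 322 counts in a library, and whether counting used strand is not given in the sources used here.

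Hnrnpu (ENSMUSG00000039630, chr1:178321108-178337797, minus strand), which encodes a scaffold attachment protein that ties RNA to chromatin, was higher as well. It had 516, 514 and 551 CPM in controls and 576, 641 and 650 CPM in the L-DL KD-labelled libraries, again with no overlap. The mean rose from 527 ± 20.6 to 622 ± 40.4 CPM (SD, n = 3), a log2 fold change of 0.24 (SE 0.0743, adjusted p = 0.0416). Neither call held without a filter on low counts (adjusted p = 0.0627 for Hnrnpk and 0.0651 for Hnrnpu). Both were also lost without control replicate 1 (adjusted p = 0.0915 and 0.145), control replicate 2 (0.112 and 0.146), control replicate 3 (0.102 and 0.0743), L-DL KD-labelled replicate 2 (0.0584 and 0.0994) or L-DL KD-labelled replicate 3 (0.0566 and 0.0753). Without L-DL KD-labelled replicate 1 both were called (adjusted p = 0.0130 and 0.00750).

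Hnrnpm (ENSMUSG00000059208), whose protein binds GU-rich RNA, had 183, 199 and 199 CPM in controls against 183, 220 and 217 CPM. Its log2 fold change of 0.10 had an interval of -0.11 to 0.30 (adjusted p = 0.449), and its annotation overlaps March2 on the same strand, which had at most 908 counts in a library. Hnrnpr (ENSMUSG00000066037), whose protein carries mRNAs such as that of beta-actin along axons, had 104, 95.02 and 97.2 CPM against 113, 94.1 and 97.2 CPM. L-DL KD-labelled replicate 1 was the highest library, and the log2 fold change of 0.04 (adjusted p = 0.761) became -0.0411 without that replicate. Syncrip (ENSMUSG00000032423), its closest relative, had 87.5, 80.2 and 91.1 CPM against 88.3, 101 and 108 CPM. One L-DL KD-labelled library lay within the control range (log2 fold change 0.20, 95% interval -0.01 to 0.41, adjusted p = 0.140). Without that library, replicate 1, Syncrip was called higher (log2 fold change 0.28, adjusted p = 0.0212).

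**Figure D2:**
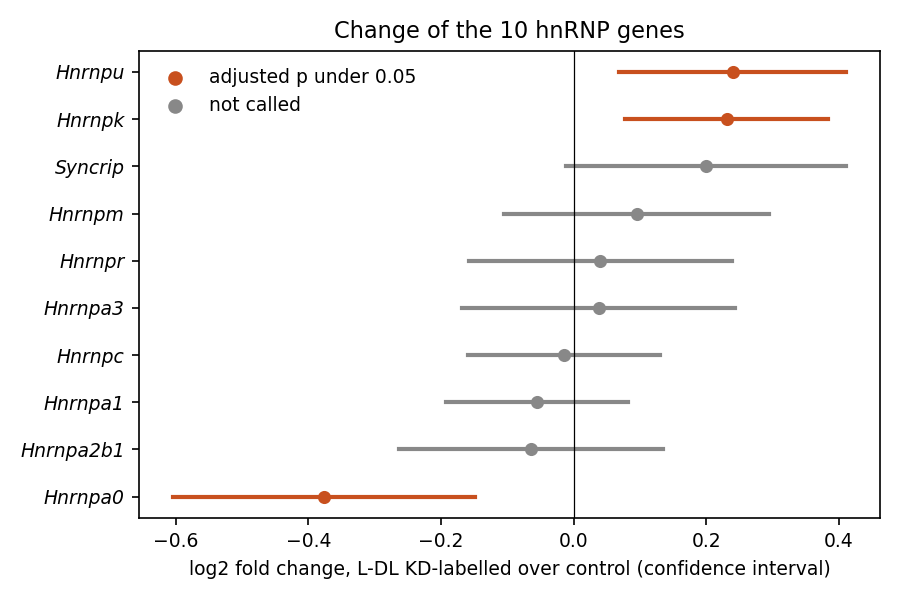
Log2 fold change of each of the 10 hnRNP genes, L-DL KD-labelled libraries over control (n = 3 each), from the edgeR fit. Points are estimates, bars are 95% intervals and colour marks an adjusted p under 0.05, which Hnrnpu, Hnrnpk and Hnrnpa0 reached.

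Levels were also compared between the genes per length. Control CPM per kilobase of merged exons was 87.3 for Hnrnpa2b1, 80.1 for Hnrnpa1, 62.5 for Hnrnpc, 51.9 for Hnrnpk, 47.2 for Hnrnpa0, 45.4 for Hnrnpu, 24.4 for Hnrnpm, 23.5 for Hnrnpa3, 7.02 for Syncrip and 4.44 for Hnrnpr. The control ranges of Hnrnpa0 and Hnrnpu overlapped, as did those of Hnrnpm and Hnrnpa3. The other neighbours in this order lay apart. Hnrnpa2b1 and Hnrnpa1 also led and Syncrip and Hnrnpr also came last with the length of the principal transcript, an alternative chosen after seeing the data, but Hnrnpa0 then moved from place 5 to place 8 and Hnrnpa3 from place 8 to place 5.

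Of 31 other genes of the hnRNP family and its relatives, 7 were called higher and 5 lower, with a median log2 fold change of -0.02. Ptbp1, the polypyrimidine tract-binding repressor of neuronal exons that is low in mature neurons, was highest in fold among these, at 40.6 to 42.2 CPM in controls and 51.9 to 71.0 CPM in the L-DL KD-labelled libraries (log2 fold change 0.58, adjusted p = 0.00678). Ptbp3, its relative, followed at 55.7 to 66.8 CPM and 76.3 to 94.6 CPM (log2 fold change 0.47, adjusted p = 0.0102). The poly(C)-binding gene Pcbp3 fell most, with 37.4 to 45.3 CPM in controls and 26.1 to 34.5 CPM in the L-DL KD-labelled libraries (log2 fold change -0.50, adjusted p = 0.0227). Msi2, of the Musashi RNA-binding proteins, was at 105 to 134 CPM in controls and 83.4 to 98.5 CPM in the L-DL KD-labelled libraries (log2 fold change -0.38, adjusted p = 0.0267). Without L-DL KD-labelled replicate 1 the counts were 8 higher and 6 lower, and without another library they ranged down to 3 and 3. Of 6 genes that import or methylate hnRNP proteins, the arginine methyltransferase Prmt1 was higher (log2 fold change 0.37, adjusted p = 0.00996) and Carm1, another of these enzymes, was lower (log2 fold change -0.48, adjusted p = 0.0106). Each is 16.7% of the 6 genes, near the shares of all genes.

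Splicing was described by the percent spliced in (PSI), here as a share from 0 to 1, which is the inclusion form's part of the junction reads after each form is divided by its effective length. The 48 events comprised 33 skipped exons, 3 retained introns, 3 pairs of mutually exclusive exons, 5 alternative 5′ splice sites and 4 alternative 3′ splice sites. Of these, 31 had enough reads to be tested. Hnrnpa0 had no listed event, and none of the 3 events of Hnrnpu passed the read minimum for both forms. The splicing table gives no replicate numbers, so libraries are given below in its order within each group.

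At an adjusted p under 0.05, 1 of the 31 events differed between the groups, in Hnrnpc, where 0.255% of all 18829 tested events did. Inclusion was lower there, as in 0.186% of all events. At an unadjusted p under 0.05 there were 8 of 31 events, with inclusion lower in 6 and higher in 2, where all events gave 13.3% in all, 8.30% lower and 4.96% higher. The Hnrnpc event alone had an unadjusted p under 0.001, as 0.977% of all events did. Groups did not overlap in 10 of 31 events, against 18.4% of all events. The 31 events had a median of 569 junction reads per library and all tested events 95.3, and the part of this read number in these shares was not tested.

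The Hnrnpc event was a skipped exon of 26 nt, exon 2 of 9 in transcript Hnrnpc-209, at GRCm38 chr14:52098015-52098040 on the minus strand. The annotation places it in the 5′ UTR, so that its use changes the leader of the mRNA and not the protein. PSI was 0.765, 0.758 and 0.754 in controls and 0.537, 0.530 and 0.470 in the L-DL KD-labelled libraries. The 3 controls lay within 1 narrow range, and every L-DL KD-labelled library lay well below it. Mean PSI fell from 0.759 ± 0.00530 to 0.513 ± 0.0368 (SD, n = 3), a difference of -0.246. The log2 odds of inclusion changed by -1.58 (95% interval -2.09 to -1.07, adjusted p = 0.0185, edgeR quasi-likelihood test with Benjamini-Hochberg adjustment over all events), on 668 to 892 junction reads per library.

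Reads of both forms of the Hnrnpc leader differed between the groups. Reads that joined the exon numbered 550, 582 and 573 in controls and 400, 507 and 340 in the L-DL KD-labelled libraries, and reads that skipped it numbered 145, 159 and 160 against 295, 385 and 328. In CPM of the library's junction reads, inclusion went from 81.9 ± 2.97 to 54.0 ± 8.66 and skipping from 22.3 ± 1.45 to 43.9 ± 5.80 (SD, n = 3), 1.97-fold higher. Hnrnpc was thus nearly level in gene counts while its exon 2 was skipped more often in all 3 L-DL KD-labelled libraries. A second Hnrnpc event, an alternative 3′ splice site that adds 25 nt to another exon of the 5′ UTR, had a PSI at or below 0.0117 in all 6 libraries and was not tested.

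**Figure D3:**
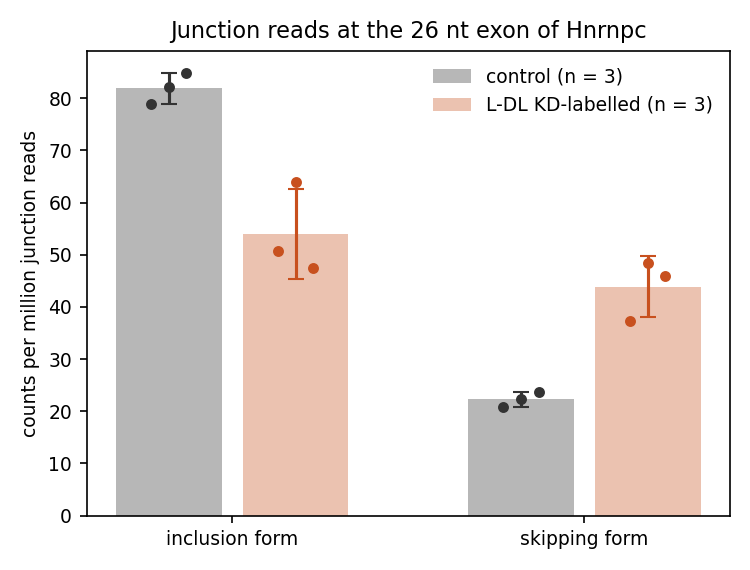
Junction reads, as CPM of the library's junction reads, that include or skip the 26 nt exon of Hnrnpc. Bars are means of 3 libraries, error bars are SD and points are libraries. The inclusion form was at 78.8 to 84.8 in controls and 47.5 to 63.9 in the L-DL KD-labelled libraries, and the skipping form at 20.8 to 23.7 and 37.4 to 48.5.

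The call for the Hnrnpc exon depended on the libraries and the test used, and its direction was the same in all fits. It was lost without the control library listed 1st (adjusted p = 0.156), 2nd (0.131) or 3rd (0.122) and without the L-DL KD-labelled library listed 2nd (0.0872) or 3rd (0.0956), and PSI changes over all such fits were -0.259 to -0.225. With limma on the log2 ratio of both forms the adjusted p was 0.184.

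In both Hnrnpa2b1 and Hnrnpa1 the smallest p belonged to an exon that extends the glycine-rich tail of the protein. In Hnrnpa2b1 this was a coding exon of 120 nt (40 codons), exon 8 of 12 in Hnrnpa2b1-202, at GRCm38 chr6:51464428-51464547 on the minus strand. In Hnrnpa1 it was a coding exon of 159 nt whose inclusion gives the longer A1B protein. The Hnrnpa2b1 exon is shown, 5′ to 3′ from GENCODE transcripts, because it had the smallest p after the Hnrnpc exon.
Hnrnpa2b1 exon 8: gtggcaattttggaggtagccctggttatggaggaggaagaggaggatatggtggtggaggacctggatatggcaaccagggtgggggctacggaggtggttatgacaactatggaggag

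These exons were used at very different levels, and mean PSI of both was lower in the L-DL KD-labelled libraries without passing adjustment. Hnrnpa2b1 exon 8 was nearly always included, with a PSI of 0.932, 0.940 and 0.948 in controls and 0.891, 0.874 and 0.899 in the L-DL KD-labelled libraries. The groups did not overlap, and mean PSI went from 0.940 ± 0.00825 to 0.888 ± 0.0128 (SD, n = 3; log2 odds -0.99, 95% interval -1.55 to -0.42, unadjusted p = 0.00243, edgeR), which did not pass adjustment (adjusted p = 0.140). The 159 nt exon of Hnrnpa1 was mostly skipped, with a PSI of 0.150, 0.173 and 0.154 in controls and 0.103, 0.127 and 0.0903 in the L-DL KD-labelled libraries. Its groups did not overlap either (0.159 ± 0.0126 and 0.107 ± 0.0187, SD, n = 3; log2 odds -0.67, 95% interval -1.20 to -0.13, adjusted p = 0.288, edgeR). The difference in mean PSI was -0.0522 in each gene, but -0.0314 for Hnrnpa2b1 and -0.0816 for Hnrnpa1 when PSI was taken without effective lengths. Other listed events of Hnrnpa1 had a PSI of at least 0.952 in every library, except for a pair listed as mutually exclusive exons. Among them was a second listing of the same 159 nt exon, on 53 to 121 junction reads per library. The pair shares the 159 nt exon and its reads (adjusted p = 0.686), and its other exon, of 156 nt, had a PSI of at least 0.994 as a skipped exon.

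A further exon of Hnrnpa2b1, named after its values were seen, was the 36 nt exon (12 codons) that distinguishes the B1 protein from A2, exon 2 of 12 in Hnrnpa2b1-203 at chr6:51467391-51467426 on the minus strand. It is printed because it alone defines the B1 protein.
Hnrnpa2b1 B1 exon: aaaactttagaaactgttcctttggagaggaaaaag
PSI was 0.120, 0.0992 and 0.110 in controls and 0.0744, 0.0824 and 0.0701 in the L-DL KD-labelled libraries. B1 was thus the minor form in all 6 libraries, with all controls above all L-DL KD-labelled libraries (log2 odds -0.59, 95% interval -1.09 to -0.09, adjusted p = 0.313). A 136 nt exon in the 3′ UTR of Hnrnpa2b1 had a PSI of 0.909, 0.848 and 0.873 against 0.771, 0.874 and 0.711, and its groups overlapped (adjusted p = 0.400). Exon 5 of Hnrnpa2b1 was included in at least 0.998 of transcripts by PSI in every library. The single event of Hnrnpa3, an alternative 5′ splice site of 66 nt in its first exon, had a PSI of 0.979 ± 0.0192 and 0.934 ± 0.0352 (SD, n = 3) with overlapping groups (adjusted p = 0.480).

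**Figure D4:**
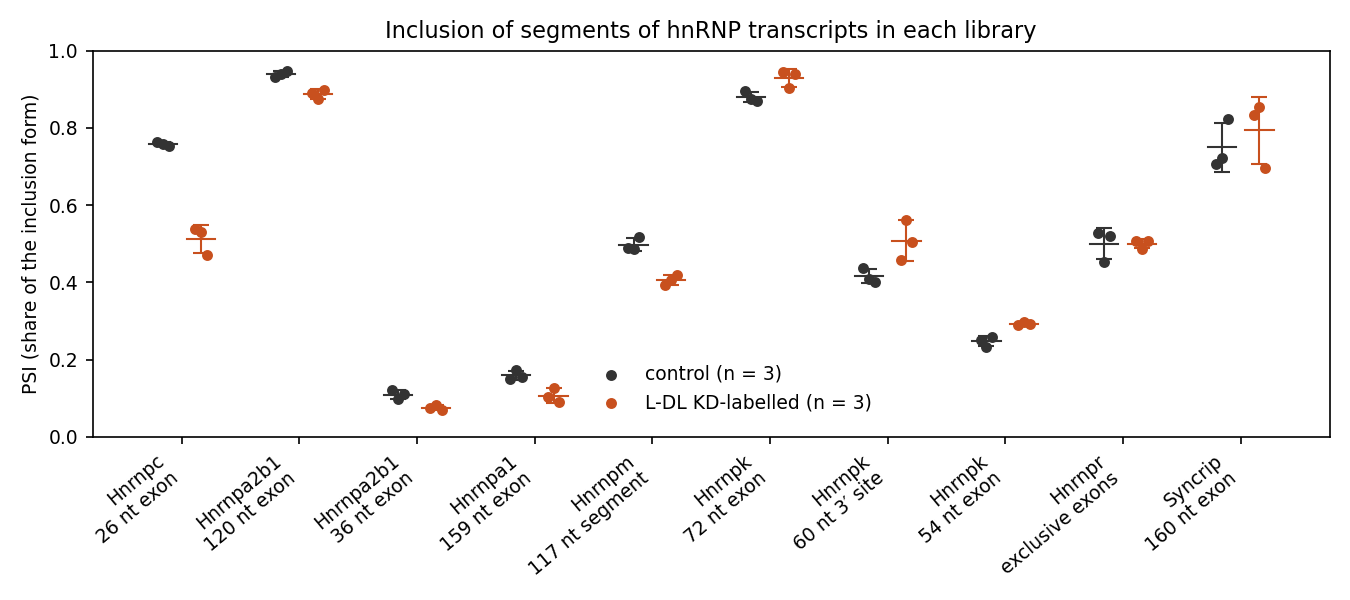
PSI of 10 segments of hnRNP transcripts in each of 3 control libraries and 3 L-DL KD-labelled libraries. Points are libraries in the order of the splicing table, lines are means and error bars are SD. The groups lie farthest apart for the 26 nt exon of Hnrnpc (0.759 and 0.513 on average). They overlap for the Hnrnpr exons listed as exclusive and for the 160 nt exon of Syncrip.

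Hnrnpk had the most events, 10 listed and 9 tested, and none was called after adjustment. Of its tested events 2 had an unadjusted p under 0.05 by edgeR, as 13.3% of all tested events did. Its groups lay apart in 4 events, against 18.4% of all tested events. Its smallest p belonged to a coding exon of 72 nt (24 codons), exon 7 of 16 in Hnrnpk-201, at chr13:58396188-58396259 on the minus strand, 1 of the 2 events with higher inclusion at an unadjusted p under 0.05, and shown for that reason.
Hnrnpk exon 7: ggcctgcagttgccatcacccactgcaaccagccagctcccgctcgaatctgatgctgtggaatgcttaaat
PSI was 0.895, 0.874 and 0.871 in controls and 0.946, 0.904 and 0.939 in the L-DL KD-labelled libraries. All 3 L-DL KD-labelled libraries lay above all controls (0.880 ± 0.0129 and 0.930 ± 0.0226, SD, n = 3; log2 odds 0.87, 95% interval 0.23 to 1.498, adjusted p = 0.246, edgeR).

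Other segments of Hnrnpk had a lower or a higher mean PSI in the L-DL KD-labelled libraries, and none passed adjustment. Exon 5 of Hnrnpk-201, a coding exon of 44 nt that is no whole number of codons and was named after its values were seen, had a PSI of 0.974, 0.981 and 0.991 in controls and 0.962, 0.973 and 0.951 in the L-DL KD-labelled libraries (adjusted p = 0.285). Skipping was thus rare, and a little less so in the L-DL KD-labelled libraries, with no overlap. A 60 nt alternative 3′ splice site in the last exon, also named after its values were seen, had a PSI of 0.438, 0.409 and 0.402 against 0.459, 0.562 and 0.505 (adjusted p = 0.399). A 54 nt exon of the 5′ UTR, exon 3 of 18 in Hnrnpk-202, had a PSI of 0.252, 0.233 and 0.259 against 0.291, 0.299 and 0.292 (adjusted p = 0.590). In both the L-DL KD-labelled libraries lay above the controls without passing the test. The 5 other tested segments of Hnrnpk were nearly always or hardly ever used, and their groups overlapped.

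In Hnrnpm, a 117 nt segment (39 codons) was kept in about as many transcripts as it was spliced out of. It is coding sequence within exon 6 of 16 in Hnrnpm-206, and the splicing table lists it as a retained intron, at chr17:33666530-33666646 on the minus strand.
Hnrnpm segment of exon 6: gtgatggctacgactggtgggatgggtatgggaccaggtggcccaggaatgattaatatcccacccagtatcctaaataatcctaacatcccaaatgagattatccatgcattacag
PSI was 0.489, 0.486 and 0.517 in controls and 0.394, 0.406 and 0.418 in the L-DL KD-labelled libraries. All L-DL KD-labelled libraries lay below all controls (0.497 ± 0.0170 and 0.406 ± 0.0123, SD, n = 3; log2 odds -0.53, 95% interval -1.05 to -0.02, adjusted p = 0.367, edgeR). The pair of mutually exclusive exons of Hnrnpm with most reads had a PSI of 0.320 ± 0.0329 and 0.380 ± 0.0451 (SD, n = 3), with overlapping groups (adjusted p = 0.595).

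The events of Hnrnpr and Syncrip had fewer reads. In Hnrnpr, use of a downstream 5′ splice site that adds 5 nt was at a PSI of 0.0201, 0.0509 and 0.0568 in controls and 0.0904, 0.124 and 0.0849 in the L-DL KD-labelled libraries, on 97 to 162 junction reads per library (adjusted p = 0.368). It was a minor site in all libraries, lower in every control. The Hnrnpr exons listed as mutually exclusive had the same mean PSI in both groups, 0.501 ± 0.0409 and 0.5003 ± 0.0119 (SD, n = 3). The 95% interval of their log2 odds was -0.61 to 0.61 (adjusted p = 0.998, edgeR). As skipped exons, both had a PSI of at least 0.992 in every library. PSI of the pair therefore does not measure a choice between them. Exon 2 of Hnrnpr, which holds the start codon in part of its transcripts, varied widely within groups, and its groups overlapped in each of the 4 listed forms. In Syncrip, a 160 nt exon had a PSI of 0.706, 0.723 and 0.823 in controls and 0.833, 0.855 and 0.695 in the L-DL KD-labelled libraries (adjusted p = 0.832). The lowest and the highest of these 6 values both came from L-DL KD-labelled libraries. The coding exon 10 of Syncrip was included at a PSI of at least 0.982 in all 6 libraries (adjusted p = 0.595).

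Of the 48 listed events, 22 had a PSI over 0.99 or under 0.01 on average, as did 11988 of all 40961 listed events. Hnrnpu, which had the highest mean CPM of the 10 genes in the L-DL KD-labelled libraries, had a coding exon of 140 nt with a PSI of at least 0.997 in every library. Of the 31 other hnRNP genes, 162 events were listed and 115 tested, of which 1 was called after adjustment and 14 had an unadjusted p under 0.05. Over all tested events these shares were 0.255% and 13.3%.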

How the data were processed

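Poly(A) RNA of 6 hippocampal samples, 3 per group, was read as pairs of 150 nt. The authors deposited unnormalized gene counts. From rMATS on GRCm38 they also deposited junction counts, with effective form lengths. The submitters' processing notes name Bowtie (version 1.1.2), HISAT2 (version 2.1.0) and HTSeq (version 0.6.1). Columns of the authors' own comparison (PSI difference, p-value, FDR) were not used. The splicing table names its groups by number only, and these were assigned to control and L-DL KD from the order in which the methods subtract them. The 10 genes, the lists and the rules were chosen with earlier results of these data known.

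Genes were kept if 3 or more libraries had 10 or more counts (17621 genes), and after TMM scaling they were tested by quasi-likelihood in edgeR (version 4.0.16, R version 4.3.3). The same edgeR test was run on the 12 junction columns (2 forms by 6 libraries), with terms for library, form and form by group. Events needed on average 20 counts a library and 1 count of both forms each. p-values were adjusted by Benjamini-Hochberg over all genes or events, at 0.05. p-values measure only the spread between these libraries. Both models were tested on simulated data. Totals were 16052529 to 17913064 gene counts and 6760349 to 7939931 junction counts per library, summed over events that can share reads. Every library of a group is 1 replicate.

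Named were all 10 genes and Hnrnpdl, the 2 other hnRNP genes that rose and the 2 that fell most among those called, and for each gene the tested event with the smallest p, that with most reads at a mean PSI of 0.1 to 0.9, and any called. Exons, lengths and sequences came from GENCODE on GRCm38. Alternatives were scaling by library size, DESeq2 (version 1.42.0), limma (version 3.58.1) on log2 inclusion over skipping counts (pseudocount 0.5), other filters, a replicate block, PSI without effective lengths, another gene length (chosen after seeing the data) and leaving out each library. Protein sequences were not used here.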

Additional observations from a re-analysis of the deposited data

How the results depend on the processing

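The main limits are 3 libraries per group, a targeted gene whose counts did not separate the groups, and calls that most fits with 1 library less did not keep. The count of the 10 genes called higher was 2, and 0 with no filter on low counts (4 genes at an unadjusted p under 0.05 in either direction) and 0 with a replicate block (3 genes, edgeR; adjusted p = 0.0649 for Hnrnpk and 0.0620 for Hnrnpu). Without 1 library it ranged from 0 to 3, and the count called lower from 0 to 1. Among the 31 other hnRNP genes these ranges were 3 to 8 higher and 3 to 6 lower. Events called numbered 0 with limma (3 with an unadjusted p under 0.05, and 0 of all events called) and 0 to 1 without 1 library. On the log2 scale, differences near 0 changed sign for Hnrnpc with scaling by library size (0.0171), and without 1 library for Hnrnpa3 (-0.0578 to 0.0977), Hnrnpc (-0.0423 to 0.0150) and Hnrnpr (-0.0411 to 0.101). The PSI difference of the Hnrnpr exons listed as exclusive ranged from -0.0238 to 0.0134 in such fits. The cause was not tested.

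DESeq2 and scaling by library size gave 2 and 1 called genes of the 10, as the reported fit did. Over all genes, scaling by library size called 3052 higher and 2392 lower against 2743 and 2636, and moved the median log2 fold change from 0.01 to 0.04. Deviations of same-numbered libraries from their group means correlated at 0.0666, 0.179 and -0.163 over genes, so the numbers were not taken to pair the libraries. Under the replicate block 0 genes were called higher and 1 lower of the 10. No paired analysis was possible for splicing because the splicing table gives no replicate numbers.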
